A study of Mus musculus with 4 samples.

Results

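Among 33678 cells kept from epithelium of the neonatal mouse small intestine, 56 expressed leukocyte genes, which is 0.166% of the kept cells with an exact 95% interval of 0.126% to 0.216%. These immune cells were chosen by their RNA. A cell entered when at least 3 of 10 genes were detected in it, with at least 5 UMIs in all over these genes (a UMI is a molecular barcode that counts 1 RNA molecule). The 10 genes were the pan-leukocyte genes Ptprc, Cd52, Laptm5, Coro1a, Rac2 and Srgn, the receptor adaptors Tyrobp and Fcer1g, and the T-cell receptor subunits Cd3e and Cd3g. Cells had to hold at least 1000 genes and a share of mitochondrial RNA under 20%, and no upper limit on genes was set.

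The cells came from the ileum and the jejunum of 2 wild-type mice at postnatal day 6, and RNA of single cells was sequenced in 4 libraries with 2 per region. All libraries share this genotype and age. Both segments of each mouse were sequenced, so replicate 1 of the ileum and of the jejunum is the mouse labelled male in batch 1, and replicate 2 is the mouse labelled female in batch 2. Mouse, labelled sex and batch cannot be told apart. The tissue was prepared as epithelium, shaken free with EDTA and then dissociated with dispase, and no step that sorts for immune cells is stated.

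The epithelium of the gut holds resident lymphocytes between its enterocytes, the absorptive cells of the villus. These intraepithelial lymphocytes are T cells with gamma-delta or alpha-beta receptors, many of which bear CD8, together with innate lymphoid cells that have no T-cell receptor. Mucosal mast cells, which store the proteases Mcpt1 and Mcpt2, and macrophages lie mostly in the lamina propria beneath, and mast cells can enter the epithelium.

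The libraries went against their sex labels. Xist, the RNA of the inactive X chromosome, was at 536 and 461 CPM (counts scaled to a common total per library) over all kept cells of ileum and jejunum replicate 1, labelled male, and at 0.713 and 0.948 CPM in replicate 2, labelled female. Eif2s3y, on the Y chromosome, was at 0.0228 and 0.112 CPM in replicate 1 and at 89.1 and 68.8 CPM in replicate 2. The immune cells followed their libraries. They held 132 and 74 Xist UMIs in ileum and jejunum replicate 1 and none in replicate 2, whereas Eif2s3y had no UMI in replicate 1 and 4 and 8 UMIs in ileum and jejunum replicate 2.

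The called cells numbered 36202 and held 378810858 UMIs, of which 408146 were in the immune cells. Median depth in the immune cells of ileum and jejunum replicate 1 was 8148 and 5061 UMIs, against 15674 and 4784 in the other kept cells. In replicate 2 it was 3481 and 6273 UMIs, against 12667 and 6140. The median mitochondrial share was 2.82% to 3.42% in the immune cells of the 4 libraries and 3.36% to 9.51% in the other cells. Only 2 cell barcodes were shared between libraries, and no immune cell carried either of them. No doublet caller was run and no doublets were removed, so a droplet with an immune cell and an enterocyte would be counted among the immune cells.

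Most kept cells held none of the rule genes, while the number of immune cells in ileum replicate 1 depended on the limits of the rule. Of the kept cells, 32064 had none of the 10 genes, 1502 had 1 gene and 54 had 2 genes, whereas 41 immune cells had 7 or more. The cells just inside were 4 with exactly 3 genes and 2 with exactly 5 UMIs. Just outside were 2 cells of ileum replicate 1 with 3 or more genes but under 5 UMIs, and 4 cells with 5 or more UMIs in under 3 genes, of which the highest, in jejunum replicate 2, held 12 UMIs. None of the 2524 called cells removed for few genes or a high mitochondrial share met the rule, which allows a share of up to 0.119%. With at least 10 UMIs of the rule genes, ileum replicate 1 kept 8 of 13 immune cells and ileum replicate 2 kept 10 of 12. Jejunum replicates 1 and 2 kept 18 of 19 and 11 of 12. After thinning each cell to 2000 UMIs, 4 and 9 cells met the rule in ileum replicates 1 and 2. In jejunum replicates 1 and 2 these were 15 and 10 cells.

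**Figure D1:**
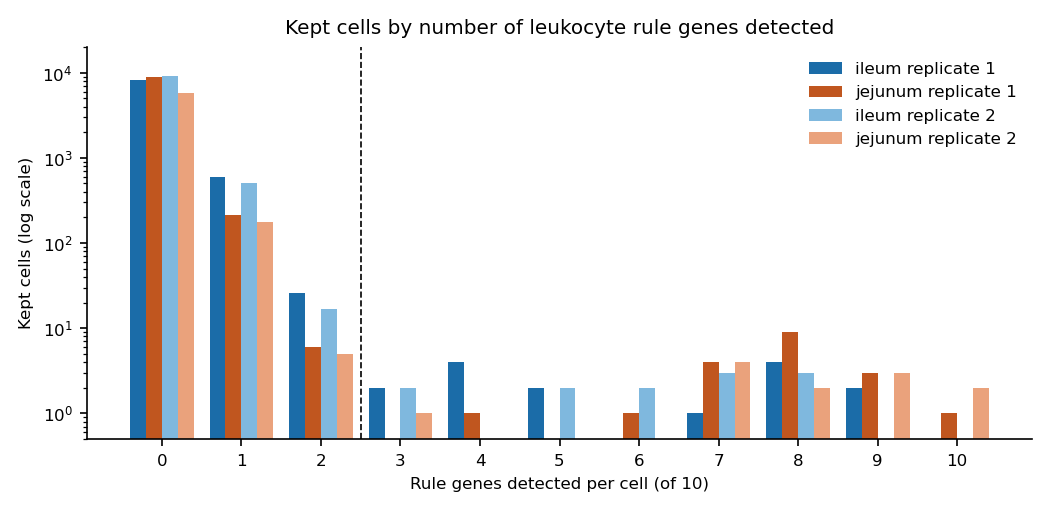
The x axis gives the number of the 10 leukocyte genes detected per cell and the y axis the number of kept cells on a log scale, with a bar for each library. The dashed line marks the least number of genes in the rule. Summed over the 4 libraries, the counts fall from 32064 cells with none of the genes through 5 cells with 3 genes to 3 cells with 6 genes, beyond the line. They then reach 18 cells with 8 genes.

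The rule genes were near absent from enterocytes, here 32130 cells chosen by enterocyte markers with a median depth of 4956.5 to 16427.5 UMIs per library. Cells that met the rule were left out of these enterocytes, so the low shares are in part set by the selection. Ptprc, the CD45 phosphatase of leukocytes, had 287 UMIs in 53 of the 56 immune cells and a UMI in 0.700% of enterocytes. Srgn, the core protein of secretory granules, had 422 UMIs in 51 immune cells and a UMI in 1.09% of enterocytes. Coro1a, an actin regulator of leukocytes, had 283 UMIs in 50 cells, and the enterocyte share was highest for this gene at 1.64%. Laptm5, a lysosomal protein of blood cells, had 235 UMIs in 52 cells. Tyrobp, an adaptor of innate receptors, had 133 UMIs in 28 cells and a UMI in 0.0591% of enterocytes. Since the rule used these genes, their levels are a description of the selection.

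Further leukocyte genes were measured in the cells that the rule chose. All 30 of those listed were detected in at least 5 of the immune cells, and they summed to 5444 CPM there against 612 CPM in the other kept cells, where 6 of the 30 were over 10 CPM. Lcp1, an actin-bundling protein on this list, was at 343 CPM in the immune cells and 198 CPM in the other cells. As a description of genes picked for this contrast, the 20 genes with the highest ratio of CPM in immune cells to CPM in all other kept cells were led by Trgc2, a constant region of the gamma chain, Gzmb, a granule protease, and Cd7, a surface protein of T and innate lymphocytes. Also among them were Ighm, Nkg7, Gzma, Ccl5, Ccl4, Ctsw, Trbc2, Rgs1, Xcl1, Ms4a6b, Mcpt1, Sh2d2a, Trbc1, H2-Aa, AI662270, Cd69 and Trgc1. Of lists for other tissues, 4 of 12 stromal and muscle genes, 5 of 10 endothelial genes, 2 of 8 neural and glial genes and 1 of 9 erythroid and platelet genes had a UMI in any immune cell. Hbb-bs and Hba-a1, the globins of red cells, were at 0 in all 56 cells.

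Lymphocytes made up most of the immune cells. By marker lists, 26 cells were T-like, 6 were innate lymphoid-like, 6 were mast-like and 3 were macrophage-like. Another 9 cells held T and innate lymphoid markers at levels too close for a call and are given as cells undecided between these lists, and 6 stayed unassigned. A cell was called when at least 2 markers of a list were detected and their UMIs were at least 2 times those of the next list, a threshold set after the values were seen. Levels of a list's own markers in the cells called by it are in part set by the call. No cell was called B-like, plasma-like, dendritic-like, neutrophil- or monocyte-like or eosinophil-like.

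**Figure D2:**
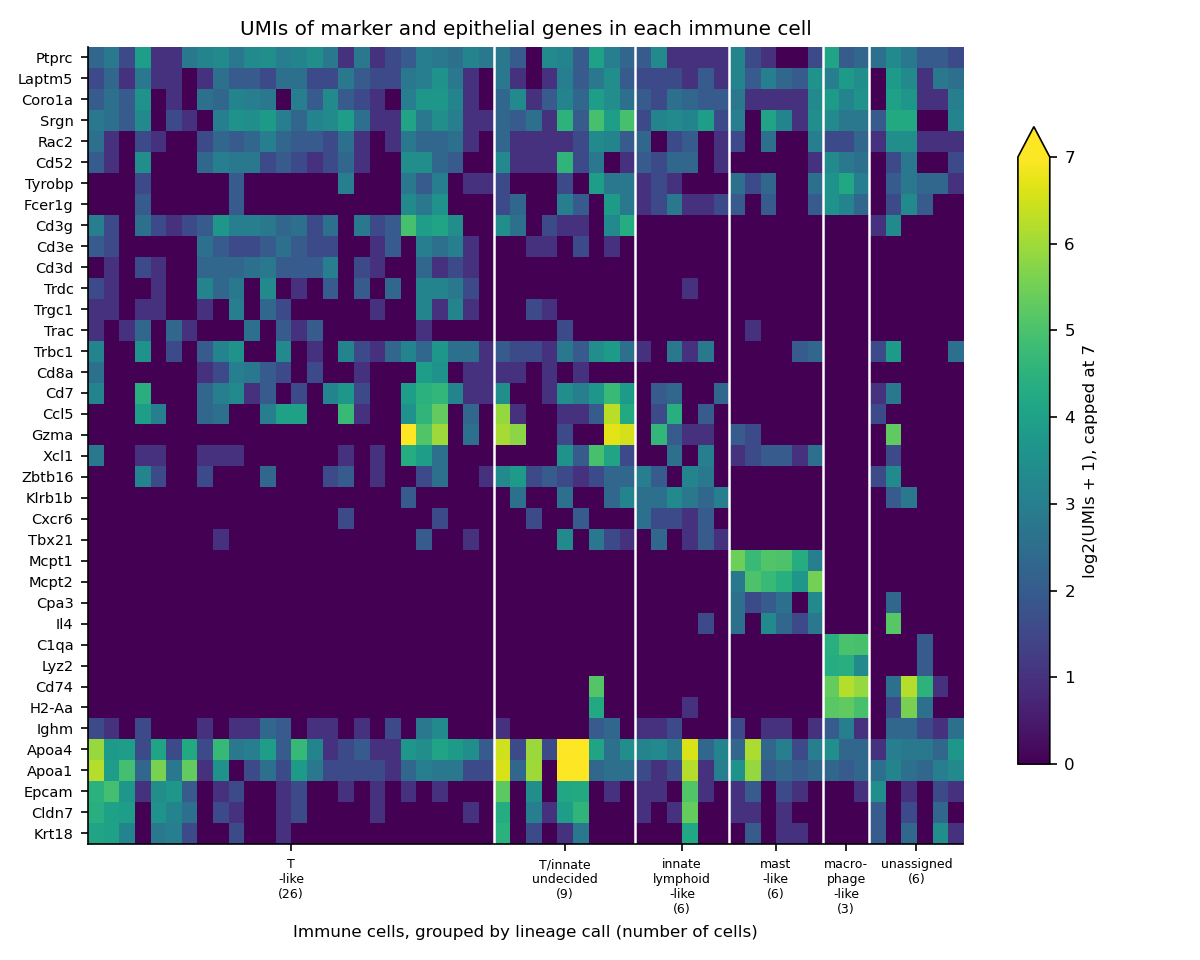
Each column is 1 of the 56 immune cells, grouped by lineage call, each row is a gene, and the colour gives log2(UMIs + 1), capped at 7. Cd3 genes appear in 23 of the 26 T-like cells, beside T-cell receptor genes that vary from cell to cell. Mcpt1 and Mcpt2 fill the 6 mast-like cells, and C1qa and Lyz2 fill the 3 macrophage-like cells. All of these genes are on the lists that made the calls. The enterocyte genes Apoa4 and Apoa1 appear across all groups.

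RNA of both kinds of T-cell receptor was found in the T-like cells, and no UMI of Cd4. A Cd3 gene was detected in 23 of the 26 T-like cells. Trdc, the constant region of the delta chain, was detected in 15 of the 26 T-like cells with up to 9 UMIs, and 1 of the gamma constant genes in 18. Trac, the constant region of the alpha chain, was detected in 10 cells with up to 5 UMIs, and a beta constant gene in 25. There were 12 cells with Trdc and no Trac, 7 with Trac and no Trdc, 3 with both and 4 with neither. A Trdc UMI was found in 0.0622% of enterocytes, but a Trac UMI was found in 7.11%, so a Trac UMI has a higher background in these libraries than a Trdc UMI. The gamma constant genes resemble each other closely, as do Trbc1 and Trbc2, and the split of UMIs between them is uncertain.

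Of the co-receptor genes, Cd8a was detected in 13 of the 26 T-like cells, with up to 14 UMIs, and Cd8b1 in 7. Of the cells with Cd8a, 9 also held Trdc and 5 held Trac. Cd4 had a UMI in 0 of 26 T-like cells, which allows a share of cells with a UMI of up to 11.5% and does not limit cells that express the gene, and the 2 immune cells with Cd4 were both macrophage-like. Genes of residence in the gut were found beside them. Itgae, the integrin chain that binds E-cadherin, was in 12 T-like cells and in 24 of all 56 immune cells. Ccr9, a chemokine receptor of gut homing, was in 25 immune cells and Itga4, an integrin chain of gut homing, in 32.

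Genes of killing and of chemokine release were uneven from cell to cell. Gzma, a granule protease, had 632 UMIs in 16 of the 56 cells. By library it had 121 UMIs in ileum replicate 1, 72 in jejunum replicate 1, 2 in ileum replicate 2 and 437 in jejunum replicate 2, and 1 T-like cell of jejunum replicate 2 held 141 of them, or 22.3%. Jejunum replicate 2 was high and ileum replicate 2 was near 0, and the regions overlapped. Gzmb had 63 UMIs in 8 cells, 57 of them in jejunum replicate 2. Ccl5, a T-cell chemokine, had 356 UMIs in 24 cells, Cd7 had 242 in 29 and Nkg7, a granule membrane protein, had 102 in 34. Prf1, the pore-forming perforin, and Gzmk were at 0 in all 56 cells, which allows a share of cells with a UMI of up to 5.36%.

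The 6 innate lymphoid-like cells were marked by Klrb1b, a lectin-like receptor of natural killer and innate lymphoid cells. Its UMIs in these cells were 4, 5, 5, 6, 7 and 9, against 3 UMIs in 1 of the 26 T-like cells and 3 and 6 UMIs in 2 of the unassigned cells. As Klrb1b, Cxcr6, Zbtb16 and Tbx21 are on the list that made the call, their levels in these cells are in part set by the call. Cxcr6, a chemokine receptor of resident lymphocytes, was in 5 of the 6 cells. Zbtb16, a transcription factor of innate-like lymphocytes, was in 4 of them, and Tbx21, the transcription factor T-bet, in 4. None of the 6 cells held Cd3e, Cd3g or Cd3d, while Tyrobp or Fcer1g was in all 6. Cd3e, Cd3g, Tyrobp and Fcer1g are genes of the selection rule. Tyrobp or Fcer1g was also in 8 of the 26 T-like cells and 7 of the 9 undecided cells. It was in 4 of the 6 mast-like, all 3 macrophage-like and 5 of the 6 unassigned cells as well. T-cell receptor RNA was not absent from the 6 innate lymphoid-like cells, since a beta constant gene was in 5 of the 6, a gamma constant gene in 2 and Trdc in 1. Klrb1b appeared in 4 of the 9 undecided cells, all 9 of which held Zbtb16 and a beta constant gene, and 8 of which held a Cd3 gene. Trdc was at 0 in these 9 cells, while 7 had a gamma constant gene. The 10 genes that led the undecided cells against the other immune cells, among them Tdrp, Enpp3, Sprr2a2 and Pck1, included no marker of either list. Fcgrt, also among the 10, is on the list of jejunal enterocyte genes. Sprr2a2 was at 1391 and 483 CPM in enterocytes of ileum replicates 1 and 2 and at 84.0 and 38.0 CPM in those of the jejunum. Of the 9 undecided cells, 4 were high in epithelial RNA, described below, and its part in these genes was not tested.

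The 6 mast-like cells held the proteases of mucosal mast cells. Mcpt1 had 7, 19, 26, 32, 33 and 43 UMIs and Mcpt2 had 6, 12, 20, 26, 32 and 45. Every mast-like cell held both, and no other immune cell held either. Mcpt1, Mcpt2, Mcpt4, Cpa3 and Il4 are on the list that made the call, so their levels are in part set by it. Mcpt4, a protease of connective tissue mast cells, had 0, 0, 1, 1, 2 and 41 UMIs. Cpa3, mast cell carboxypeptidase, was in 5 of the 6 cells with up to 9 UMIs. Il4, a type 2 cytokine, had 0, 2, 4, 5, 6 and 9 UMIs, and the chemokine Ccl4 had 1, 2, 2, 15, 20 and 36. The lymphocyte chemokine Xcl1 was found in all 6 of these cells with 1 to 5 UMIs. Fcer1a, the alpha chain of the receptor for immunoglobulin E, and the tryptases Tpsb2 and Tpsab1 were at 0 in all 56 immune cells. Reads of the Mcpt genes, which form a family of close copies, may be assigned to the wrong member.

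The 3 macrophage-like cells, of which 1 came from jejunum replicate 1 and 2 from ileum replicate 2, held complement and antigen presentation genes. C1qa, a chain of the complement component C1q, had 20, 30 and 31 UMIs, C1qb had 10, 14 and 19, and C1qc had 14, 20 and 20. Lyz2, the lysozyme of phagocytes, had 9, 19 and 20 UMIs. The C1q genes and Lyz2 are on the list that made the call, so their levels are in part set by it. Cd74, the invariant chain of MHC class II, had 40, 60 and 74 UMIs and H2-Aa, a class II alpha chain, had 30, 36 and 38. The cytokine Il1b had 5, 9 and 14 UMIs and Mmp9, a secreted protease, had 15, 16 and 16. S100a8 and S100a9, the abundant proteins of neutrophils, were at 0 in all 56 immune cells.

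MHC class II RNA lay in few cells. Cd74 had 310 UMIs in 8 of the 56 cells, with none in ileum replicate 1, 141 in jejunum replicate 1, 135 in ileum replicate 2 and 34 in jejunum replicate 2. An unassigned cell of jejunum replicate 1 held 221 UMIs over the listed class II genes, 32 of the dendritic list and 27 of the neutrophil and monocyte list, so neither list led the other by the 2 times needed for a call. Another unassigned cell of the same library held 54 UMIs of the T list, 40 of the mast list and 26 of the innate lymphoid list, with 35 UMIs of Il4, the highest count of Il4 in any immune cell. A further unassigned cell of that library held 19 UMIs of the macrophage list, among them 3 of C1qa, and 43 of the class II genes. With 10 UMIs of the neutrophil and monocyte list, it too missed the 2 times needed. Mmp9 and Il1b, found in all 3 macrophage-like cells, are on that list.

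Ighm, the heavy chain of immunoglobulin M, was detected in 32 of the 56 immune cells. It had 1 to 9 UMIs in these cells and 79 in all, and was found in 14 of the 26 T-like cells and in all 3 macrophage-like cells. Only 3 Ighm UMIs were found in all 32130 enterocytes. Igkc, the kappa light chain, was at 0 in the immune cells and Cd79a, a B-cell receptor subunit, had 1 UMI in 1 cell.

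The immune cells took a similar small share of each library. It was 0.145% in ileum replicate 1 (13 of 8943 cells) and 0.125% in ileum replicate 2 (12 of 9623), against 0.208% in jejunum replicate 1 (19 of 9135) and 0.201% in jejunum replicate 2 (12 of 5977). Within each mouse the jejunum was higher, and the regions did not overlap. The mean was 0.135% ± 0.0146 in the ileum and 0.204% ± 0.0051 in the jejunum (SD, n = 2 each), a difference of -0.0693 percentage points. The two-sided exact permutation test gave p = 0.333, the smallest p that 2 libraries against 2 allow. The exact binomial intervals of all 4 libraries overlapped, from 0.0645% to 0.350%, and cover counting error only. Depth and the mitochondrial share of the other cells moved with region, and their part in this difference was not tested beyond the alternatives. With a mitochondrial limit of 10% the difference was -0.178 percentage points, and among cells low in epithelial RNA, described below, it was -0.124.

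The lineages were too few per library to separate the regions, where the smallest p possible is 0.333. T-like cells were 8 and 5 of the immune cells of ileum replicates 1 and 2 and 7 and 6 of those of jejunum replicates 1 and 2. Their mean share was 51.6% ± 14.1 in the ileum and 43.4% ± 9.30 in the jejunum (n = 2 each, exact permutation test p = 0.667). Innate lymphoid-like cells numbered 0 and 2 against 3 and 1, mast-like cells 0 and 2 against 3 and 1, macrophage-like cells 0 and 2 against 1 and 0, undecided cells 4 and 0 against 2 and 3, and unassigned cells 1 and 1 against 3 and 1. The exact permutation p was 0.667 or 1 for each of these lineages at n = 2 per region. Ileum replicate 1 had no mast-like cell among 13, which allows a share of up to 23.1%. The difference in T-like share was -0.493 percentage points after thinning each cell to 2000 UMIs, against 8.18 as measured.

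**Figure D3:**
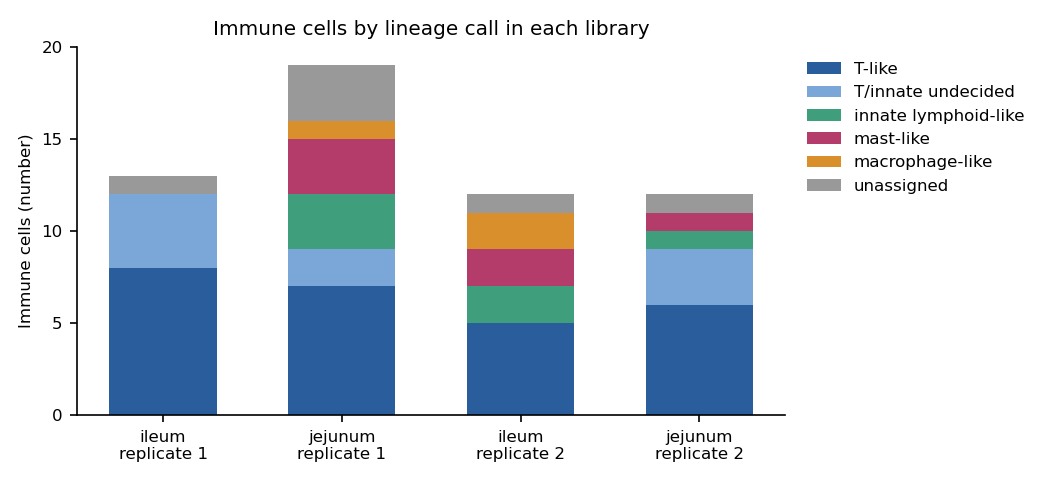
Stacked bars give the number of immune cells of each lineage call in each of the 4 libraries, on an axis that starts at 0. T-like cells number 5 to 8 in every library, and the other groups are at 0 to 4 cells.

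All immune cells carried some enterocyte RNA. Apoa4, an apolipoprotein of fat absorption, was detected in all 56 of them and Apoa1, another apolipoprotein, in 54. Over 24 enterocyte genes, the share of UMIs in immune cells was 45.8% of that in enterocytes of the same library in ileum replicate 1, 29.9% in ileum replicate 2, 31.0% in jejunum replicate 1 and 7.96% in jejunum replicate 2. Enteroendocrine cells, 264 hormone cells of the same epithelium, were at 53.6%, 34.2%, 29.1% and 20.8% in the same order. The mean of the immune cells was 37.8% ± 11.3 in the ileum and 19.5% ± 16.3 in the jejunum (n = 2 each, exact permutation test p = 0.667), a difference of 18.4 percentage points. It was 8.08 points without cells of over 6000 genes and 7.24 points by the median over cells.

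The carried RNA was concentrated in some of the cells. In 18 of the 56 immune cells the enterocyte list or a list of 16 general epithelial genes, among them Epcam, Cdh1 and Krt8, reached 25% of the median of enterocytes in the same library. Of these, 10 passed by the enterocyte list and 8 by the general epithelial list alone, and the highest cell stood at 152% of enterocytes on the general list. The values next to the limit were 22.3% and 33.1% on the enterocyte list and 21.7% and 26.8% on the general list. Cells high in epithelial RNA were 9 of 13 in ileum replicate 1, 5 of 12 in ileum replicate 2, 4 of 19 in jejunum replicate 1 and 0 of 12 in jejunum replicate 2, which allows a share of up to 25% there. The ileum held more of them in both mice, and the mean share was 55.4% ± 19.5 against 10.5% ± 14.9 (n = 2 each, exact permutation test p = 0.333, the smallest p possible).

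**Figure D4:**
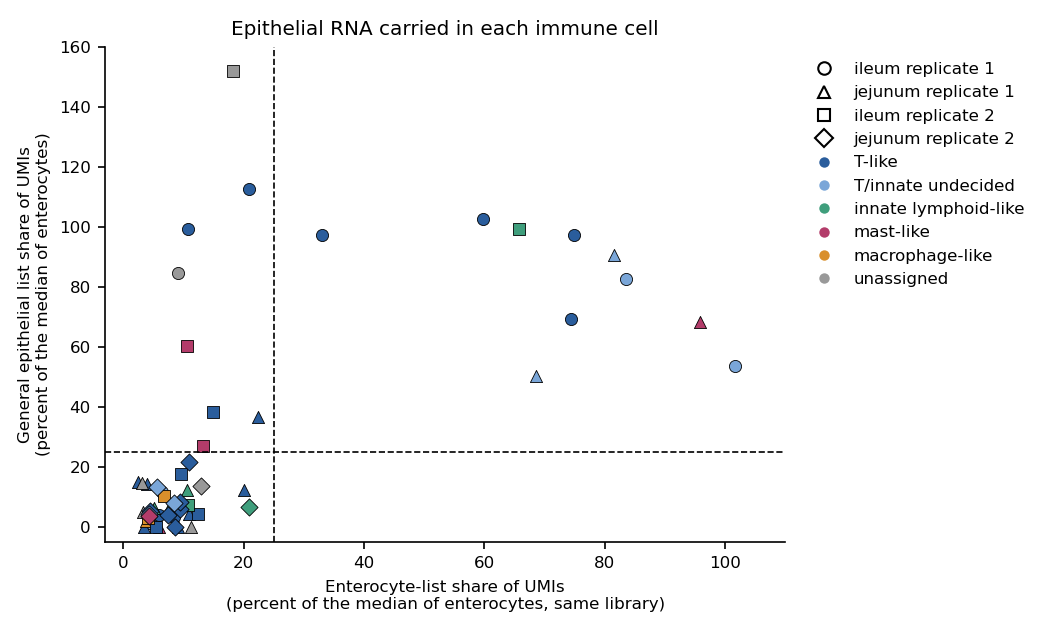
Each point is an immune cell, with the share of its UMIs from 24 enterocyte genes on the x axis and from 16 general epithelial genes on the y axis, both as a percent of the median of enterocytes in the same library. Marker shape gives the library and colour the lineage call. The dashed lines mark 25%, and 38 cells lie below both lines, among them all 12 cells of jejunum replicate 2.

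The 18 cells high in epithelial RNA held fewer UMIs of the rule genes than the other 38, given here as a description since these genes chose the cells. They had a median of 11.5 rule gene UMIs (5 to 79) against 38 (8 to 94), although their median depth was higher, at 7312 against 4858 UMIs. Per 1000 UMIs the median of the rule genes was 1.95 against 7.50. The rule was met with under 10 UMIs by 8 of the 18 and by 1 of the 38. Of the genes on the lists that made the split, Hnf4a, a transcription factor of enterocytes, and the peptidase Enpep were each in 10 of the 18 cells and in none of the 38, and Epcam was in 18 of 18 and 15 of 38 cells. Whether these 18 are droplets that hold an immune cell and an epithelial cell, or immune cells with more free RNA, was not tested.

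The cells low in epithelial RNA still carried enterocyte RNA, at a share that the limit of 25% holds down. It was 5.69% of enterocytes in ileum replicate 1, 7.32% in ileum replicate 2, 6.43% in jejunum replicate 1 and 7.96% in jejunum replicate 2. The regions overlapped, and no comparison is drawn from these values, since the cells were chosen by them. Apoa1 was found in 36 and Apoa4 in 38 of these 38 cells. The high cells were 8 of the 26 T-like, 1 of the 6 innate lymphoid-like, 4 of the 9 undecided, 3 of the 6 mast-like, 0 of the 3 macrophage-like and 2 of the 6 unassigned cells. Of genes that mark a region in enterocytes, the 10 listed genes of jejunal enterocytes summed to 3119 and 684 CPM in the immune cells of jejunum replicates 1 and 2, against 426 and 418 CPM in those of ileum replicates 1 and 2. Of their 580 UMIs in all immune cells, Fcgrt held 245 and Fabp1 239, while the 6 UMIs of Ltc4s were all in ileum replicate 2. The 10 listed genes of ileal enterocytes summed to 893 and 418 CPM in the ileum and to 111 and 128 CPM in the jejunum.

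Cell cycle genes were found in immune cells of all 4 libraries. At least 10 of 25 cycle genes were detected in 5 of 13 cells of ileum replicate 1, 2 of 12 of ileum replicate 2, 3 of 19 of jejunum replicate 1 and 3 of 12 of jejunum replicate 2. These were 7 of the 38 cells low in epithelial RNA and 6 of the 18 high ones, and depth was not equalized for this count.

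To compare the regions gene by gene, the UMIs of the immune cells were summed per library and tested with edgeR's quasi-likelihood test. None of 2525 genes was called at an adjusted p under 0.05 (0% called), with 222 genes at an unadjusted p under 0.05 and the smallest adjusted p at 0.413. DESeq2 called 3 genes. With no filter on low counts edgeR called 78 genes, and it called 90 without ileum replicate 2 and 39 without jejunum replicate 2. In sums of so few cells, fewer immune cells of a lineage and less RNA per cell cannot be told apart.

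Epithelial genes were higher and leukocyte genes lower in the ileum sums, where more cells were high in epithelial RNA. All 10 of the general epithelial genes tested were higher in the ileum, with a median log2 fold change of 2.13 against 0.02 over all 2525 genes, and none was called. Epcam, the adhesion molecule of epithelium, was at 886 ± 397 CPM in the ileum and 195 ± 195 CPM in the jejunum (n = 2 each). Of 21 leukocyte genes outside the rule, 3 were higher in the ileum, with a median of -0.76, and all 8 cytotoxic genes tested were lower, with a median of -1.61. Of all 2525 genes, 1301 were higher in the ileum. Among the cells low in epithelial RNA the medians of the leukocyte and cytotoxic genes were -0.18 and -1.14, and no gene was called. In enterocytes they were -0.10 and -1.05. The 19 listed cytotoxic genes summed to 2429 and 2551 CPM in the immune cells of ileum replicates 1 and 2. In those of jejunum replicates 1 and 2 they summed to 3750 and 14713 CPM. As a description of genes that chose the cells, the 10 rule genes were all lower in the ileum, with a median of -1.04, and Ptprc was at 463 ± 84.3 against 914 ± 38.0 CPM (n = 2 each). The 9 phagocyte genes tested were all higher in the ileum, with a median of 1.76, and the median of the phagocyte genes in enterocytes was 0.64. The 30 listed phagocyte genes summed to 4329 CPM in the immune cells and 6448 CPM in the other kept cells, and ileum replicate 2 held 2 of the 3 macrophage-like cells. The part of epithelial RNA and of cell makeup in these values was not tested.

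The 3 genes called by DESeq2, singled out after their values were seen, are genes of the epithelium. Guca2a, the peptide guanylin, had 128, 48, 4 and 0 UMIs in ileum replicates 1 and 2 and jejunum replicates 1 and 2, and 2, 3, 0 and 0 in the cells low in epithelial RNA. Edn1, endothelin 1, had 45, 54, 0 and 1 UMIs in the same order, and 0, 3, 0 and 1 in the low cells. The highest cell held 39 Edn1 UMIs, and in enterocytes Edn1 was at 202, 263, 125 and 179 CPM in the same order. Fabp1, a fatty acid binding protein of jejunal enterocytes, had 1, 5, 206 and 27 UMIs, and 1, 2, 22 and 27 in the low cells. The regions did not overlap for any of the 3 genes in the full set of cells. By edgeR their adjusted p was 0.413, 0.413 and 0.554.

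The regional change itself was then compared between the immune cells and the enterocytes of the same libraries. The interaction of region and class was called for 68 of 17430 genes (0.39% called), 40 more positive in the immune cells and 28 more negative. With the enterocytes cut to as many cells and UMIs as the immune cells, 50 of the 68 were tested, all 50 kept their sign and 2 were called. With the cells low in epithelial RNA 18 genes were called, 15 of them shared with the 68.

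Scd2, a fatty acid desaturase, was higher in the ileum in enterocytes, while the regions overlapped in the immune cells. It was at 339 and 153 CPM in the enterocytes of ileum replicates 1 and 2 and at 0.376 and 0.152 CPM in those of jejunum replicates 1 and 2. In the immune cells it was at 129, 43.2, 55.5 and 99.8 CPM in the same order, from 16, 3, 8 and 7 UMIs. The interaction was -9.52 ± 0.85 (SE) on the log2 scale with an edgeR adjusted p of 1.54e-24, and it was also called among cells low in epithelial RNA. With enterocytes of equal number and depth it was -6.76, with an adjusted p of 0.204.

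Among the genes more positive in the immune cells was Krt18. Krt18, a keratin of simple epithelia, was at 643 and 418 CPM in the immune cells of ileum replicates 1 and 2 and at 118 and 14.3 CPM in those of jejunum replicates 1 and 2, whereas enterocytes were level, at 702, 722, 627 and 729 CPM in the same order. Its interaction was 2.78 ± 0.60 (edgeR adjusted p = 0.00222), and 3.13 with enterocytes of equal number and depth (adjusted p = 0.0819). Cldn7, a tight junction protein, gave 2.15 ± 0.57 (adjusted p = 0.0444), and 2.34 with the equal enterocytes (adjusted p = 0.320). Both genes are on the epithelial list that defined the cells low in epithelial RNA, so the fit on those cells says nothing of them.

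**Figure D5:**
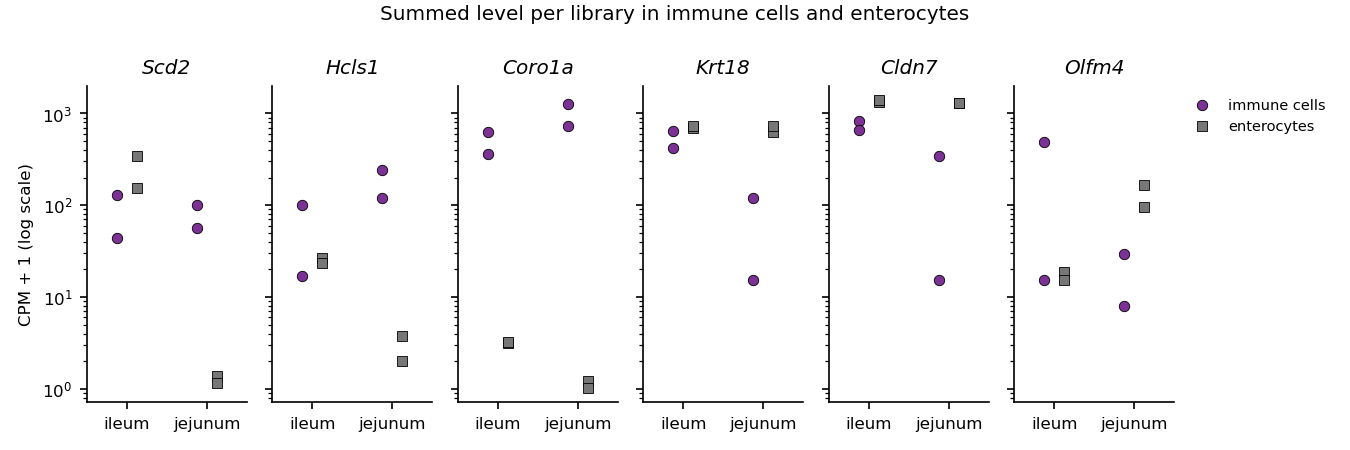
Each panel gives CPM + 1 on a log scale for 1 gene, with a point for each of 2 libraries per region, in the summed immune cells (circles) and in enterocytes (squares). Scd2 falls from ileum to jejunum in enterocytes and overlaps between regions in immune cells, while Krt18 and Cldn7 are level in enterocytes and lower in the immune cells of the jejunum.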

How the data were processed

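The authors built the libraries with a PIPseq V T20 kit, and PIPseeker, at a stated resolution of 3, made the deposited tables, whose values are raw counts of UMIs per gene and cell. The submitters' processing notes name GRCm39, and the annotation is not given in the sources used here, so no coordinates are given. All values were whole numbers.

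The 56 immune cells followed the rule above. The members and all gene lists were chosen with earlier results of these data known. Lists shared with enterocytes were trimmed of markers over 10 CPM in other cells before lineage calls. Enterocytes needed 12 enterocyte markers, and enteroendocrine cells 3 markers and 10 UMIs. Cells that met the immune rule were left out of both, and enteroendocrine cells were left out of the enterocytes. Intervals are Clopper-Pearson. Counts were summed per library and fitted with edgeR 4.0.16 in R 4.3.3 (filterByExpr, TMM, region only, Benjamini-Hochberg), with the library as a block for the interaction, and DESeq2 1.42.0 as an alternative. Cell selection used Python 3.11.15, numpy 2.4.6, scipy 1.17.1 and pandas 2.3.3. A floor is 3 counts, or 20.8 to 43.2 CPM per library. Scripts were tested on simulated data with 200 changed genes and a fixed dispersion (a measure of spread between libraries) of 0.2. The region test recovered 39% of 4-fold and 99.5% of 16-fold changes there, and the interaction test 13% of 16-fold changes.

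Named genes are those of the rule and the lists, the region test's called genes with the 10 highest and 10 lowest changes at 20 CPM or more (none), and the 20 highest ratios to other cells among genes in at least 10% of immune cells. Others were singled out after their values were seen. Both segments of a mouse share a replicate number. The deviations of same-numbered libraries correlated at -0.0423, which is the same in both pairs by arithmetic with 2 libraries per region. A fit with the mouse as a block was tried. The 2 libraries per region are 2 mice.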

Additional observations from a re-analysis of the deposited data

Results flagged for a closer look

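The regional change differed between immune cells and enterocytes by the interaction test for 68 genes, of which 20 are on the gene lists. Against enterocytes of equal number and depth, 18 of the 68 were not tested, the other 50 kept their sign and 2, Olfm4 and Zfp791, were called. In 5 of the 68 more than 50% of the immune UMIs came from 1 cell, and 6 had no UMI in the immune cells of a region. Under 10 UMIs in the immune cells were held by 2 of the 68.

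More negative in the immune cells, as log2 interaction, were Scd2 (-9.52), Il18r1 (-6.30), Hcls1 (-5.52), Coro1a (-5.06), Lcp1 (-2.17) and Nr4a1 (-2.02). Coro1a is a gene of the selection rule, so its value is a description. Hcls1, an adaptor of blood cells, was at 25.5 and 22.4 CPM in enterocytes of ileum replicates 1 and 2 and at 2.74 and 0.987 CPM in those of jejunum replicates 1 and 2.

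More positive were the epithelial genes Krt19 (4.61), Cldn3 (3.90), Tspan8 (3.09), Krt18 (2.78), Krt8 (2.46), Lgals4 (2.17) and Cldn7 (2.15), the lipid transporter Mfsd2a (7.17), the crypt gene Olfm4 (6.89), the proliferation gene Mki67 (4.12) and Apoe (2.90), whose 152 UMIs lay in 5 immune cells. Olfm4 had 61 of its UMIs in ileum replicate 1. Mfsd2a had 2, 0, 6 and 0 immune UMIs in ileum replicates 1 and 2 and jejunum replicates 1 and 2. In enterocytes it was at 0.611, 0.599, 135 and 455 CPM in the same order. Slc12a2 (16.9), Ltc4s (19.96) and Sox9 (15.4) had no UMI in the immune cells of the jejunum, so these fitted values depend on the prior count and are no bound.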

How the results depend on the processing

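The share of immune cells stayed lower in the ileum under all 12 alternatives, including without replicate 1 or without replicate 2 (-0.0761 to -0.0626 percentage points), and was -0.106 at 2000 UMIs per cell. The enterocyte share of UMIs was higher in the ileum by 14.8 to 21.9 points without a replicate, by 45.6 points with the general epithelial list, and the difference was -0.692 points among cells low in epithelial RNA, an alternative chosen after seeing the data that selects cells by the value compared. Thinning to 2000 UMIs reversed the T-like (-0.493), innate lymphoid-like (2.84) and unassigned (8.45) differences, and that of the undecided cells was 1.79 with low enterocyte RNA and 12.5 with low epithelial RNA. Without a replicate, the lineage differences ran from -8.33 to 24.7 (T-like), -15.8 to 8.33 (innate lymphoid-like and also mast-like), -25.0 to 20.2 (undecided), -5.26 to 16.7 (macrophage-like) and -8.10 to 0 (unassigned). The cause was not tested.

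With the mouse as a replicate block the region test called 0 genes, as in the fit without it, and the blocked fit of low epithelial RNA cells also called 0. Without the block, 78 genes were called with no filter on low counts, 57 of which had passed the filter, 11 of which were at 0 in a region and none of which had under 10 UMIs, and 3 by DESeq2. Leaving out a library gave 0 to 90 calls, with 90 without ileum replicate 2 and 39 without jejunum replicate 2, where the lone library is assumed to vary like the other region. The interaction gave 68 genes, 2 with an equal reference and 18 with low epithelial RNA cells. Its fits without a replicate have no residual degrees of freedom and were not run. With 12 to 19 immune cells per library and 2 libraries per region, p = 0.333 is the smallest exact p.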
